A study of Mus musculus with 10 samples.

Results

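The enzymes described here carry glutamine and pyruvate into the citric acid cycle and turn the cycle itself. They are 32 genes, listed by name, of the 55450 genes in the deposited count table. The comparison is between corneal endothelial peelings of Slc4a11-/- mice (KO) and of Slc4a11+/+ mice (WT), both on the C57BL/6 strain and both at postnatal week 12, with 5 libraries each. Each library pools the peelings of 6 eyes from 3 animals, and errors below describe variation among such pools. The kind of Slc4a11 deletion and the sex of the animals were not given in the sources used here. The labels do not say whether the pools came from separate litters or days, so p-values measure only the spread between these samples. The question is which genes of the pathway differ in transcript level when Slc4a11 is missing.

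Corneal endothelial cells are rich in mitochondria, which feed the ion pumps that keep the stroma clear. Glutamine is one of their fuels. It is deamidated to glutamate, glutamate is turned to 2-oxoglutarate by glutamate dehydrogenase or by transaminases, and 2-oxoglutarate enters the citric acid cycle. The steps release ammonia, and the SLC4A11 protein has been described as an ammonia-sensitive proton transporter. Pyruvate enters the same cycle as acetyl-CoA or, through carboxylation, as oxaloacetate.

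Slc4a11 had 70.1 to 114 CPM (counts per 1000000 counts of the library, with library sizes adjusted by TMM) in KO libraries and 3489 to 4357 CPM in WT libraries. Each library therefore had the level its label calls for. Total counts ranged from 36026193 to 51008996 per library. The peelings held transcripts of the corneal endothelium their label names, and its 7 markers summed to 20833 to 24981 CPM in KO and 20188 to 23771 CPM in WT. Of these 7, Grip1 was called lower in KO, and Slc4a4, a bicarbonate cotransporter, had all KO libraries (560 to 879 CPM) below all WT libraries (938 to 1002 CPM) without passing. The 8 keratocyte markers summed to 62634 to 84071 CPM in KO and 59889 to 91685 CPM in WT, with Kera and Ptgds called lower and Thy1 higher. The cell type behind a level of a cycle enzyme, which every cell uses, cannot be read from these libraries, and fewer cells of a type and less RNA per cell cannot be told apart. The KO libraries differed among themselves in corneal epithelium. The 8 epithelial markers summed to 1989, 576, 23.5, 203 and 3911 CPM in KO 1 to KO 5, against 18.1 to 169 CPM in WT. Of these 8 markers 7 were called higher in KO and 0 were at 0 in every library. The 4 Schwann cell markers summed to 40.9 to 68.8 CPM in KO and 23.8 to 35.0 CPM in WT, with 3 called higher. The 4 muscle markers summed to 61.0 to 79.0 CPM in KO and 90.3 to 102 CPM in WT, with 1 (Myh11) called lower. Des and Cnn1 were too low to be tested. The muscle sums were thus almost wholly Myh11 (16.5 to 31.3 CPM in KO, 36.4 to 45.2 CPM in WT) and Acta2. Acta2 did not pass (42.1 to 52.7 CPM in KO, 47.8 to 63.9 CPM in WT). The 5 vascular endothelial markers summed to 80.7 to 103 CPM in KO and 102 to 152 CPM in WT, with Kdr called lower and Plvap higher. Kdr made up most of these sums (77.7 to 99.9 CPM in KO, 99.6 to 149 CPM in WT). The other tested markers went the other way, with log2 fold changes of 0.95 (Pecam1), 0.89 (Cdh5) and 1.18 (Plvap). Tek was too low to be tested. Of the 5 lens markers, which summed to 10.7 to 17.1 CPM in KO and 7.71 to 11.0 CPM in WT, 2 were called higher. The part of these cell types in the results was not tested. Values are given without KO 1, KO 2 and KO 5, the libraries with the most epithelial transcript. Among the KO libraries this keeps, the epithelial sum of KO 4 (203 CPM) and the Schwann sums of KO 3 and KO 4 (41.5 and 47.2 CPM) still lie above every WT library. So do their lens sums (17.1 and 13.2 CPM), while their muscle sums (78.3 and 79.0 CPM) lie below every WT library. The 6 pigment cell markers summed to 16.1 CPM in KO 3 and 4.27 CPM in KO 4, against 2.86 to 6.87 CPM in WT. Some values are also given with the epithelial marker level as a covariate.

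Transcripts of the cycle were close to their WT level in KO. All 32 genes had enough counts to be tested, and of these 1 rose, 1 fell and 30 did not pass (quasi-likelihood test of edgeR, p adjusted by Benjamini-Hochberg over 17729 genes and under 0.05). The 1 that rose was Aco1 and the 1 that fell was Idh2. That is 6.25% of the 32, where 15.3% of all tested genes were called, 7.59% higher and 7.73% lower. At an unadjusted p under 0.05 there were 8 of the 32, where 31.1% of all tested genes were past that value. Over all tested genes, which were not matched to the 32 in transcript level, the median log2 fold change was 0.00 and the median size 0.15. For the 32 these were 0.03 and 0.09. Because a missed threshold does not show equal levels, the 95% intervals bear on this more directly. For 29 of the 32 the interval lay inside -0.5 to 0.5, and for 18 it lay inside -0.25 to 0.25. The wider bound is loose, as the interval of Idh2, a called gene, was only just outside it (-0.51 to -0.23). The share of all tested genes with such intervals was not computed, so these counts do not set the 32 apart. Without KO 1, KO 2 and KO 5, 0 rose and 1 fell. Leaving out single libraries gave 4 that rose without WT 1, 2 without KO 5, 1 without WT 4, and 0 without any other library. It gave 3 that fell without WT 4 and 1 without any other library.

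**Figure D1:**
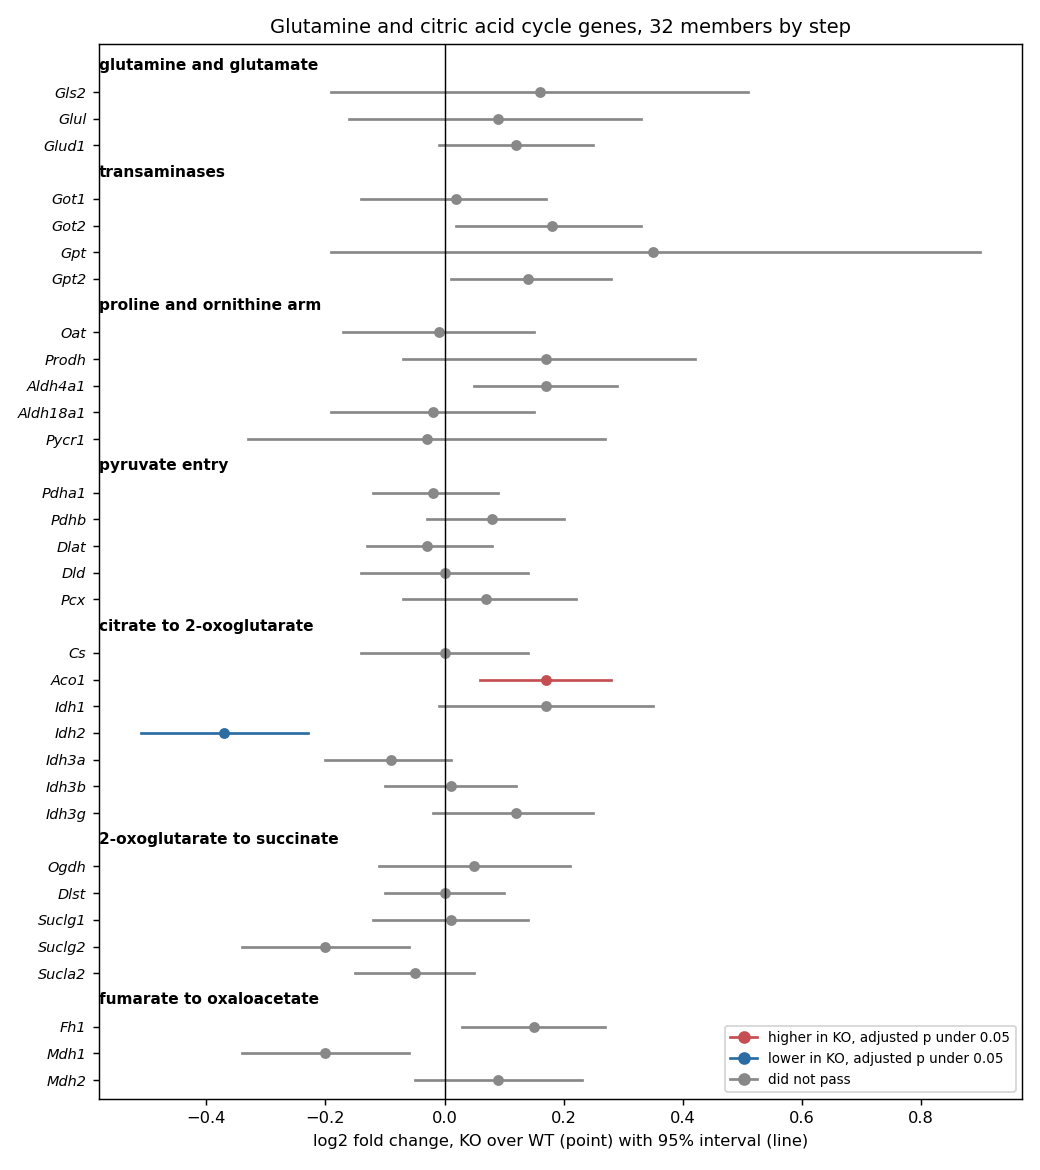
Log2 fold change of KO over WT (x axis) for each of the 32 genes (y axis, ordered by step), where a point is the estimate, a line its 95% interval and the colour the call at an adjusted p under 0.05. Idh2 at -0.37 is the only gene called lower, Aco1 at 0.17 the only one called higher, and most intervals are narrow and include 0.

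The first steps take glutamine to glutamate and on to 2-oxoglutarate. Gls2, the liver-type glutaminase, was barely transcribed, at 1.26, 1.90, 1.76, 2.17 and 1.54 CPM in KO and 1.55, 1.48, 1.37, 1.84 and 1.46 CPM in WT. At this low count its log2 fold change of 0.16 had a wide 95% interval, -0.19 to 0.51. Glul, glutamine synthetase, which runs the other way and binds ammonia to glutamate, was the more abundant by far, with 298 ± 28.4 CPM in KO and 281 ± 46.8 CPM in WT (SD, n = 5 each). The log2 fold change of Glul was 0.09 (95% interval -0.16 to 0.33). Its libraries spread from 255 to 324 CPM in KO and from 212 to 334 CPM in WT. Glud1, glutamate dehydrogenase, had 164, 165, 164, 165 and 184 CPM in KO against 164, 145, 146, 162 and 158 CPM in WT. All KO libraries were at or near the top of the WT range, KO 5 stood well above it, and Glud1 did not pass (log2 fold change 0.12, SE 0.06, edgeR adjusted p = 0.18).

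Transaminases move the amino group of glutamate to a keto acid and give 2-oxoglutarate without free ammonia. Got2, the mitochondrial aspartate aminotransferase, had 61.2, 61.3, 64.8, 66.8 and 71.0 CPM in KO against 66.1, 53.6, 51.8, 57.9 and 58.2 CPM in WT. The groups overlapped through WT 1, which stood above the other WT libraries, and Got2 did not pass (log2 fold change 0.18, SE 0.07, edgeR adjusted p = 0.11). Without WT 1 it was called (0.23, edgeR adjusted p = 0.0281). A pseudogene, Got2-ps1, had a mean of 4.09 CPM, and reads may be split between them. Got1, its cytosolic counterpart, averaged 20.3 ± 1.39 CPM in KO and 20.1 ± 1.71 CPM in WT. Gpt2, the mitochondrial alanine aminotransferase, had 24.7, 23.0, 22.6, 26.0 and 25.6 CPM in KO against 19.8, 21.6, 22.5, 22.6 and 23.6 CPM in WT. The groups overlapped between 22.6 and 23.6 CPM, and the log2 fold change was 0.14 (edgeR adjusted p = 0.14). Gpt, the cytosolic form that is abundant in liver, was low at 2.25 ± 0.921 CPM in KO and 1.76 ± 0.398 CPM in WT. Its estimate of 0.35 had the widest interval of all 32 genes (-0.19 to 0.90), and without KO 1, KO 2 and KO 5 it was -0.05. KO 5, the library with the most epithelial transcripts, held its highest value (3.81 CPM).

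Glutamate also exchanges with proline and ornithine. Aldh4a1, the mitochondrial enzyme that makes glutamate from the proline breakdown product, had 38.2, 33.6, 36.4, 36.9 and 33.3 CPM in KO against 33.1, 30.2, 30.3, 31.8 and 32.9 CPM in WT. The groups did not overlap, yet the gene fell just short of the threshold (log2 fold change 0.17, SE 0.05, edgeR adjusted p = 0.051). It was called in 5 of the 19 alternative fits. A predicted gene, Gm21969, overlaps Aldh4a1 on the same strand, so its reads are less certain. Prodh, proline dehydrogenase, which starts that breakdown, had 9.54 ± 1.52 CPM in KO and 8.45 ± 0.804 CPM in WT. Oat, ornithine aminotransferase, was far more abundant, with 169 ± 8.84 CPM in KO and 170 ± 18.5 CPM in WT (log2 fold change -0.01, 95% interval -0.17 to 0.15). The synthetic direction had Aldh18a1, which reduces glutamate, at 65.5 ± 2.35 CPM in KO and 66.4 ± 8.20 CPM in WT. Pycr1, which completes proline, had 9.71 ± 1.44 CPM in KO and 9.93 ± 1.89 CPM in WT. In total 0 of these 5 genes passed. Oat overlaps Fgfr2 (mean of 85.5 CPM in WT) on the same strand, and Aldh18a1 overlaps Gm15801 (1.97 CPM in WT) there. The values of Oat and Aldh18a1 are therefore less certain too.

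Pyruvate enters through the pyruvate dehydrogenase complex, whose subunit genes differed little between KO and WT. Pdha1, the catalytic alpha subunit that kinases switch off, had 136, 132, 131, 123 and 135 CPM in KO against 138, 127, 132, 135 and 132 CPM in WT. Its log2 fold change was -0.02 with a 95% interval of -0.12 to 0.09. The partner subunit Pdhb had 59.6 ± 2.47 CPM in KO and 56.2 ± 3.09 CPM in WT. Dlat, the acetyltransferase core, had 32.6 ± 1.65 CPM in KO and 33.2 ± 1.01 CPM in WT. Dld, the dihydrolipoamide dehydrogenase shared with the 2-oxoglutarate complex, averaged 62.2 ± 6.08 CPM in KO and 62.4 ± 0.277 CPM in WT. The KO libraries of Dld lay between 53.7 CPM (KO 3) and 68.5 CPM (KO 1), and the WT libraries between 62.0 and 62.7 CPM. Pcx, pyruvate carboxylase, which refills oxaloacetate, had 63.5 ± 4.40 CPM in KO and 60.3 ± 4.61 CPM in WT. None of the 5 passed in the edgeR test, where 0 had an unadjusted p under 0.05, nor in DESeq2 or limma-voom.

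The stretch from citrate to 2-oxoglutarate held both called genes. Idh2, the mitochondrial isocitrate dehydrogenase that reduces NADP rather than NAD, had 45.9, 49.0, 56.1, 52.2 and 56.0 CPM in KO against 68.8, 70.5, 65.8, 61.7 and 67.4 CPM in WT. Every KO library was below every WT library. Idh2 fell by 0.37 on the log2 scale (SE 0.06, 95% interval -0.51 to -0.23, edgeR adjusted p = 0.0031), to 51.8 ± 4.43 CPM in KO against 66.8 ± 3.34 CPM in WT (SD, n = 5 each). KO 3, whose epithelial sum (23.5 CPM) was within the WT range, had 56.1 CPM, the highest KO value and below the lowest WT library. The part of the cell types in the Idh2 values was not tested. The log2 fold change of Idh2 was -0.30 without KO 1, KO 2 and KO 5 (edgeR adjusted p = 0.0359). With the epithelial marker level as covariate it was -0.34 (edgeR adjusted p = 0.0303). Idh2 was called in all 19 alternative fits, with estimates of -0.40 to -0.30 and adjusted p-values of 7.77e-06 to 0.0359.

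Aco1 encodes the cytosolic aconitase, which isomerises citrate and, without its iron-sulfur cluster, binds iron-responsive elements of messenger RNAs as IRP1. It had 43.5, 42.7, 43.2, 43.1 and 40.1 CPM in KO against 39.8, 34.7, 37.2, 39.8 and 37.9 CPM in WT. The groups did not overlap, though KO 5 came close to WT 1 and WT 4. Aco1 rose by 0.17 on the log2 scale (SE 0.05, edgeR adjusted p = 0.044), a 1.12-fold difference between 42.5 ± 1.41 CPM in KO and 37.9 ± 2.12 CPM in WT. The estimate stayed at 0.14 to 0.21 over the alternatives, but the call did not. It was lost in 13 of 19 fits, among them the fit without any 1 of WT 2, WT 3, WT 5, KO 1, KO 2, KO 3 or KO 4, where it was 0.14 to 0.17 with an edgeR adjusted p of 0.0745 to 0.102. Without KO 1, KO 2 and KO 5 it was 0.20 (edgeR adjusted p = 0.17).

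**Figure D2:**
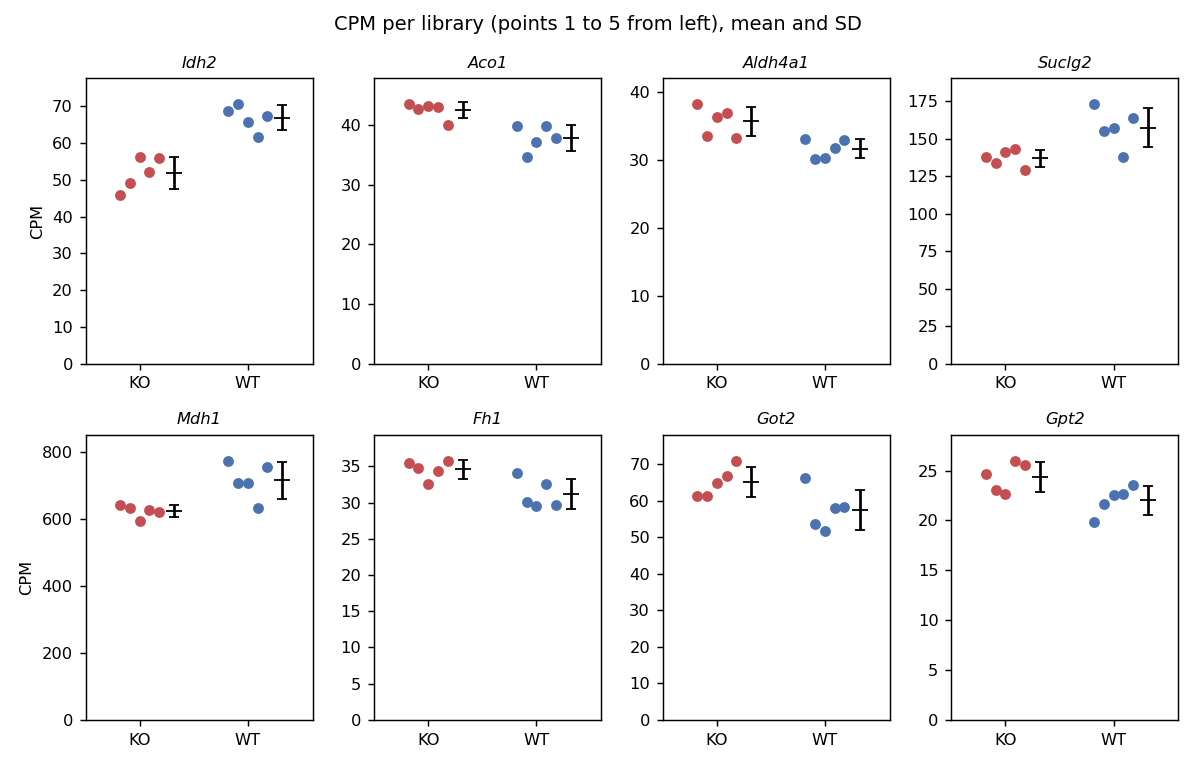
CPM in each library (y axis from 0, points of replicates 1 to 5 from left to right) in KO and WT, with mean and SD, for the 8 genes with an unadjusted p under 0.05. Idh2, Aco1 and Aldh4a1 do not overlap between the groups, and the other 5 genes do.

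In GRCm38, Idh2 (ENSMUSG00000030541.16) spans 80094846 to 80115392 of chromosome 7 on the minus strand, and Aco1 (ENSMUSG00000028405.9) spans 40143081 to 40198338 of chromosome 4 on the plus strand. Both are protein-coding genes, and neither overlaps another tested gene. The RefSeq start of both lies within the span given by GENCODE. Across the 32 genes, 3 had groups that did not overlap, 2 with KO above (Aco1 and Aldh4a1) and 1 with KO below (Idh2). Of all tested genes 12.0% did not overlap, 5.88% with KO above and 6.16% with KO below. As Idh2 and Aco1 are the genes called, the 250 bases before their RefSeq transcription start in GRCm38.p6 are shown, 5′ to 3′ on the gene's strand. The Idh2 window is chr7:80115351-80115600 and the Aco1 window is chr4:40143015-40143264. Capitals mark the motifs CCAAT and GGGCGG on either strand.
Idh2: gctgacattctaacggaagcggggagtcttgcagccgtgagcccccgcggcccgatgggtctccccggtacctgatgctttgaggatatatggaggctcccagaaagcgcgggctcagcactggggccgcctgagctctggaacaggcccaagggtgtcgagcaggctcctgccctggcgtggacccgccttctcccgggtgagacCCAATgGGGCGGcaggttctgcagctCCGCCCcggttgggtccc
Aco1: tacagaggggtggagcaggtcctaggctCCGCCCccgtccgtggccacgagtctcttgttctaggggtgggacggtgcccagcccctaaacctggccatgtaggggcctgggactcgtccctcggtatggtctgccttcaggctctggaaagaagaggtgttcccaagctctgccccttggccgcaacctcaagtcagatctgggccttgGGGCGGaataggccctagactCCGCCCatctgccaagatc
The Idh2 window holds 1 CCAAT and 2 GGGCGG motifs, the second of them read on the opposite strand, and the Aco1 window holds 3 GGGCGG motifs and 0 CCAAT. The GC content was 67.2% in the Idh2 window and 62.8% in the Aco1 window. Neither holds ACGTG, 1 form of the core of the hypoxia response element. The other form, GCGTG, was not counted over the promoters, and the Idh2 window holds it (in ctggcgtggac). A promoter entry was found for 29 of the 32 genes, and the first entry listed for each gene was used. GGGCGG was in 18 of the 29 (62.1%), against 32.9% of 27025 mouse promoter windows of the same length. CCAAT was in 16 (55.2%), against 34.5%, and ACGTG was in 6 (20.7%), against 16.6%. The 27025 windows were not limited to tested or protein-coding genes, whereas all of the 29 are both, so the shares are not of like sets. These are matches of letters and not measured binding.

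The other enzymes of this stretch did not pass. Cs, citrate synthase, had 102 ± 4.78 CPM in KO and 102 ± 8.88 CPM in WT (95% interval of the log2 fold change -0.14 to 0.14). The NAD-linked isocitrate dehydrogenase that drives the cycle has 3 kinds of subunit. Its catalytic Idh3a had 61.1, 57.1, 59.1, 57.0 and 60.4 CPM in KO against 67.4, 60.9, 63.2, 60.9 and 61.9 CPM in WT. KO 1 alone lay within the WT range (log2 fold change -0.09, edgeR adjusted p = 0.20). Idh3b had 59.2 ± 3.43 CPM in KO and 58.8 ± 1.55 CPM in WT. Idh3g had 56.0, 59.0, 57.2, 63.4 and 62.9 CPM in KO against 61.1, 52.2, 51.4, 53.7 and 56.9 CPM in WT. The groups of Idh3g overlapped through WT 1 and WT 5 (log2 fold change 0.12, edgeR adjusted p = 0.21). Idh1, the cytosolic NADP-linked form, had 67.8, 69.6, 80.0, 69.7 and 86.8 CPM in KO against 69.8, 58.6, 64.3, 73.0 and 66.2 CPM in WT. Its log2 fold change of 0.17 (95% interval -0.01 to 0.35, edgeR adjusted p = 0.17) had the opposite sign to that of Idh2.

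From 2-oxoglutarate to succinate, Ogdh, the rate-setting dehydrogenase, had 201 ± 9.08 CPM in KO and 194 ± 20.4 CPM in WT (95% interval -0.11 to 0.21). Dlst, the succinyltransferase core of the same complex, had 49.7 ± 2.06 CPM in KO and 49.8 ± 1.52 CPM in WT. Succinyl-CoA synthetase pairs a shared alpha subunit, Suclg1, with a beta subunit that sets whether GTP (Suclg2) or ATP (Sucla2) is made. Suclg2 had 138, 134, 141, 143 and 129 CPM in KO against 173, 155, 157, 138 and 164 CPM in WT, with an overlap through WT 4. It did not pass (log2 fold change -0.20, SE 0.06, edgeR adjusted p = 0.056), and without WT 4 it was called at -0.24 (edgeR adjusted p = 0.0249). Sucla2 had 69.9 ± 2.64 CPM in KO and 72.3 ± 2.69 CPM in WT, and Suclg1 had 60.3 ± 4.54 CPM in KO and 59.8 ± 2.94 CPM in WT. Their log2 fold changes were -0.05 and 0.01.

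The last stretch restores oxaloacetate. Fh1, fumarase, had 35.5, 34.8, 32.5, 34.3 and 35.8 CPM in KO against 34.1, 30.1, 29.5, 32.5 and 29.7 CPM in WT. The groups overlapped through KO 3 and WT 1, and Fh1 did not pass (log2 fold change 0.15, SE 0.05, edgeR adjusted p = 0.082; 0.19 without WT 1, edgeR adjusted p = 0.0314). Mdh1, the cytosolic malate dehydrogenase of the malate-aspartate shuttle, had 642, 634, 594, 628 and 622 CPM in KO against 775, 709, 709, 632 and 757 CPM in WT. WT 4 alone lay within the KO range, and Mdh1 did not pass (log2 fold change -0.20, SE 0.06, edgeR adjusted p = 0.056; -0.24 without WT 4, edgeR adjusted p = 0.0269). Mdh2, the mitochondrial enzyme of the cycle, had 115 ± 6.40 CPM in KO and 108 ± 8.94 CPM in WT (log2 fold change 0.09, 95% interval -0.05 to 0.23). Mdh1 overlaps Wdpcp on the opposite strand, and Gls2, Glul, Prodh, Pdha1, Pcx, Idh3b, Sucla2 and Fh1 also overlap a tested gene there. The kit is stranded, but with the strand setting not given in the sources used here, the values of these 9 genes are less certain. For Prodh and Gls2 the partner was the more abundant, with Dgcr6 at 36.6 CPM and Spryd4 at 4.86 CPM in WT.

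Several of these reactions exist in a cytosolic and a mitochondrial form, and the ratio of the forms can be read within each library. Levels were divided by exon length for this. The ratio of Idh1 to Idh2 was 1.38, 1.33, 1.33, 1.25 and 1.45 in KO against 0.948, 0.776, 0.912, 1.1 and 0.918 in WT. All KO libraries were above all WT libraries. The ratio of Mdh1 to Mdh2 was 8.13, 7.98, 7.30, 7.60 and 6.88 in KO against 8.83, 9.35, 10.1, 8.23 and 9.77 in WT, with all KO libraries below. The ratio of Got1 to Got2 was 0.594 ± 0.0187 in KO and 0.666 ± 0.0399 in WT (SD, n = 5 each), again with all KO libraries below. The ratio of Gpt to Gpt2 overlapped, at 0.109 to 0.286 in KO and 0.109 to 0.192 in WT. The isocitrate pair thus leaned to the cytosolic form in KO, and the malate and aspartate pairs to the mitochondrial form. Of these 4 ratios 3 did not overlap between KO and WT, and Idh2 by itself did not overlap either. The 7 other ratios formed between genes of the pathway overlapped. For Idh3a to Idh3g this was narrow, with KO up to 0.581 and WT from 0.579. The share over all pairs of genes was not computed, so these counts do not set the 4 pairs apart. The ratios were formed after single values had been seen and are given as a description with no test.

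**Figure D3:**
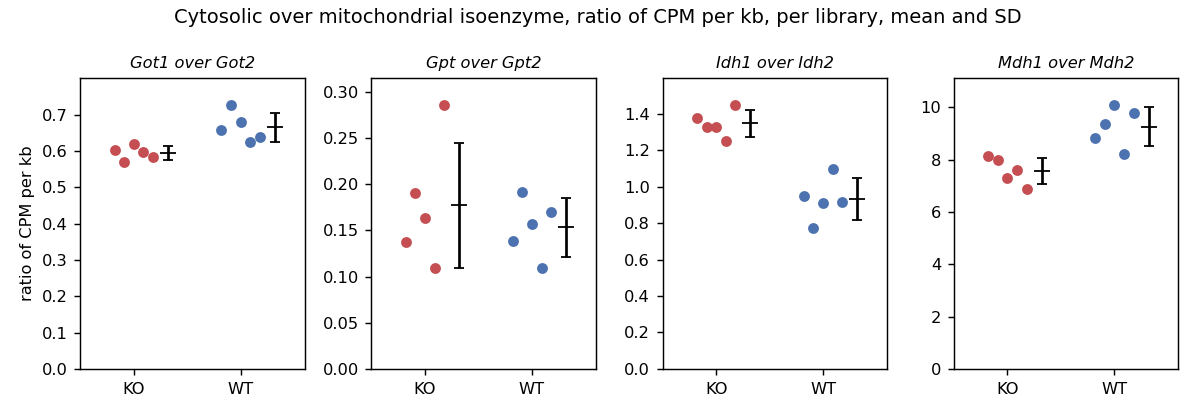
Ratio of the cytosolic to the mitochondrial form (y axis from 0, ratio of CPM per kb of exon) in each library of KO and WT, with mean and SD. Idh1 over Idh2 is at 1.25 to 1.45 in KO and 0.776 to 1.1 in WT, Mdh1 over Mdh2 and Got1 over Got2 are below the WT range in KO, and Gpt over Gpt2 overlaps.

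Levels per length set the members apart more than genotype did. Mdh1 was the most abundant transcript of the pathway, at 243 ± 7.13 CPM per kb of exon in KO and 279 ± 21.5 in WT. Glul came next with 89.6 ± 8.56 CPM per kb in KO and 84.4 ± 14.1 in WT, and Oat with 71.5 ± 3.75 in KO and 72.1 ± 7.83 in WT. In WT the ranges of mean ± SD of Glul and Oat overlapped. Glud1 (40.0 ± 2.05 CPM per kb in KO, 36.8 ± 2.1 in WT), Ogdh (36.8 ± 1.66 in KO, 35.6 ± 3.74 in WT) and Pdha1 (35.2 ± 1.34 in KO, 35.6 ± 1.18 in WT) followed at like levels. Idh2 stood at 20.0 ± 1.71 CPM per kb in KO, below Idh1 at 27.0 ± 2.98. In WT the ranges of mean ± SD of Idh2 (25.8 ± 1.29) and Idh1 (24.0 ± 1.98) overlapped. At the low end were Pycr1, Prodh, Gpt and Gls2. Gls2 had 0.497 ± 0.0997 CPM per kb in KO and 0.443 ± 0.0525 in WT.

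**Figure D4:**
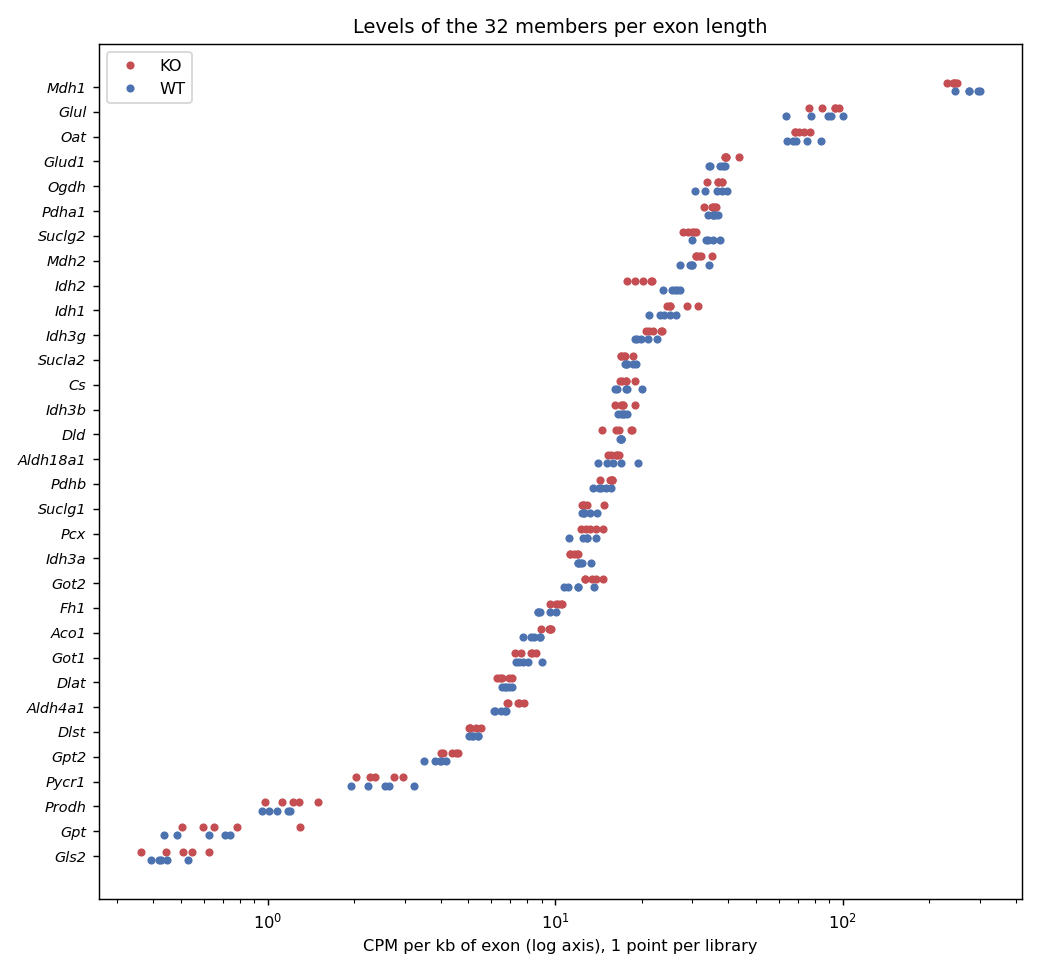
CPM per kb of exon (x axis, log scale) in each library for the 32 genes (y axis, ordered by the WT mean), with KO points above WT points in each row. Levels span from Gls2 (0.443 in WT) to Mdh1 (279 in WT), and KO and WT points of most genes overlap, while those of Idh2 do not.

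Around the cycle, Pdk1, Psat1, Slc25a18 and Slc1a5 fell, while Pdp2, Asns, Acly and 6 others rose. Of 52 other genes of the pathway, listed with earlier results of these data known, 50 were tested, and of these 9 rose, 4 fell and 37 did not pass. That is 26.0%, against 15.3% of all tested genes, with a median log2 fold change of 0.05. Leaving out 1 library gave 5 that rose without WT 3, WT 4, WT 5, KO 1 or KO 4, and 7 that fell without KO 3. Without KO 1, KO 2 and KO 5, 5 rose and 3 fell. The regulators of pyruvate dehydrogenase held the clearest values. Pdk1, the kinase that inactivates the complex and a known target of hypoxia-inducible factor, had 79.9, 84.5, 86.5, 75.9 and 80.2 CPM in KO against 159, 160, 150, 126 and 138 CPM in WT. KO and WT libraries did not overlap, and Pdk1 fell by 0.85 (SE 0.07, edgeR adjusted p = 2.1e-05). Pdp2, a phosphatase that reactivates the complex, rose by 0.69 (SE 0.08, edgeR adjusted p = 2.0e-04), with 10.2 to 12.2 CPM in KO against 6.31 to 7.29 CPM in WT. The log2 fold changes of the complex's own Pdha1, Pdhb, Dlat and Dld were -0.03 to 0.08, and that of Pdhx, which binds Dld to the core, was -0.13, with none called. The kinase Pdk4 was at the threshold, with 3.07 ± 0.357 CPM in KO and 2.26 ± 0.376 CPM in WT (log2 fold change 0.44, edgeR adjusted p = 0.0499). Its call was lost without any single library other than WT 1 or KO 3 (0.37 to 0.48, edgeR adjusted p of 0.0622 to 0.109).

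Among mitochondrial carriers, Slc25a18, a glutamate carrier, fell by 1.20 (SE 0.15, edgeR adjusted p = 3.3e-04), to 0.971 ± 0.146 CPM in KO against 2.23 ± 0.297 CPM in WT. It overlaps Atp6v1e1, at 243 CPM in WT, on the opposite strand, so its level is uncertain. The dicarboxylate carrier Slc25a10 rose to 11.5 ± 0.966 CPM in KO against 9.20 ± 0.702 CPM in WT (edgeR adjusted p = 0.019), and without KO 1, KO 2 and KO 5 it was 0.22 on the log2 scale (edgeR adjusted p = 0.254). The citrate carrier Slc25a1 rose to 56.3 ± 3.62 CPM in KO against 47.5 ± 5.08 CPM in WT (edgeR adjusted p = 0.043). The call of Slc25a1 was lost without any single library other than WT 1 (0.22 to 0.27, edgeR adjusted p of 0.052 to 0.103). Acly, which splits exported citrate to make acetyl-CoA for lipids, rose by 0.29 (SE 0.06, edgeR adjusted p = 0.0062), with 113 to 125 CPM in KO against 85.0 to 99.8 CPM in WT. Pck2, which makes phosphoenolpyruvate from mitochondrial oxaloacetate, rose by 0.25 (SE 0.07, edgeR adjusted p = 0.028), a call lost without WT 3, WT 4, WT 5, KO 1 or KO 4 (0.19 to 0.26, edgeR adjusted p of 0.0509 to 0.075). Pck1 did not have enough counts to be tested. The succinate dehydrogenase subunits and assembly factors, which carry the step between succinate and fumarate, had 0 of 6 called, and their log2 fold changes were 0.00 to 0.11.

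At the plasma membrane, Slc1a5, the glutamine transporter ASCT2, fell by 0.21 (SE 0.05, edgeR adjusted p = 0.019), to 18 ± 0.838 CPM in KO against 20.8 ± 0.732 CPM in WT. Without KO 1, KO 2 and KO 5 it was -0.15 (edgeR adjusted p = 0.311). The call was also lost when WT 4, WT 5 or KO 1 alone was left out (-0.20, edgeR adjusted p of 0.0524 to 0.0566). Slc7a11, which exports glutamate in exchange for cystine, rose by 0.61 (SE 0.19, edgeR adjusted p = 0.044) at a low level, 1.29 ± 0.201 CPM in KO and 0.849 ± 0.210 CPM in WT. Its call was lost without any 1 library other than WT 1 or KO 5 (0.52 to 0.64, edgeR adjusted p of 0.065 to 0.105). Among enzymes that take nitrogen from glutamine or glutamate, Asns, asparagine synthetase, rose by 0.73 (SE 0.13, edgeR adjusted p = 0.0027), with 14.6 to 20.6 CPM in KO against 8.38 to 13.6 CPM in WT. Gfpt2, of the hexosamine pathway, rose by 0.53 (SE 0.12, edgeR adjusted p = 0.012), to 11.6 ± 1.35 CPM in KO against 8.07 ± 1.39 CPM in WT, and it was not called without KO 1, KO 2 and KO 5 (edgeR adjusted p = 0.0903). Psat1, a transaminase of serine synthesis that yields 2-oxoglutarate, fell by 0.71 (SE 0.12, edgeR adjusted p = 0.0024), to 173 ± 20.5 CPM in KO against 281 ± 48.6 CPM in WT. KO and WT libraries overlapped for Slc7a11 and not for Slc1a5, Asns, Gfpt2 or Psat1. The enzymes of proline, 4-aminobutyrate and 2-hydroxyglutarate had 0 of 6 called.

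**Figure D5:**
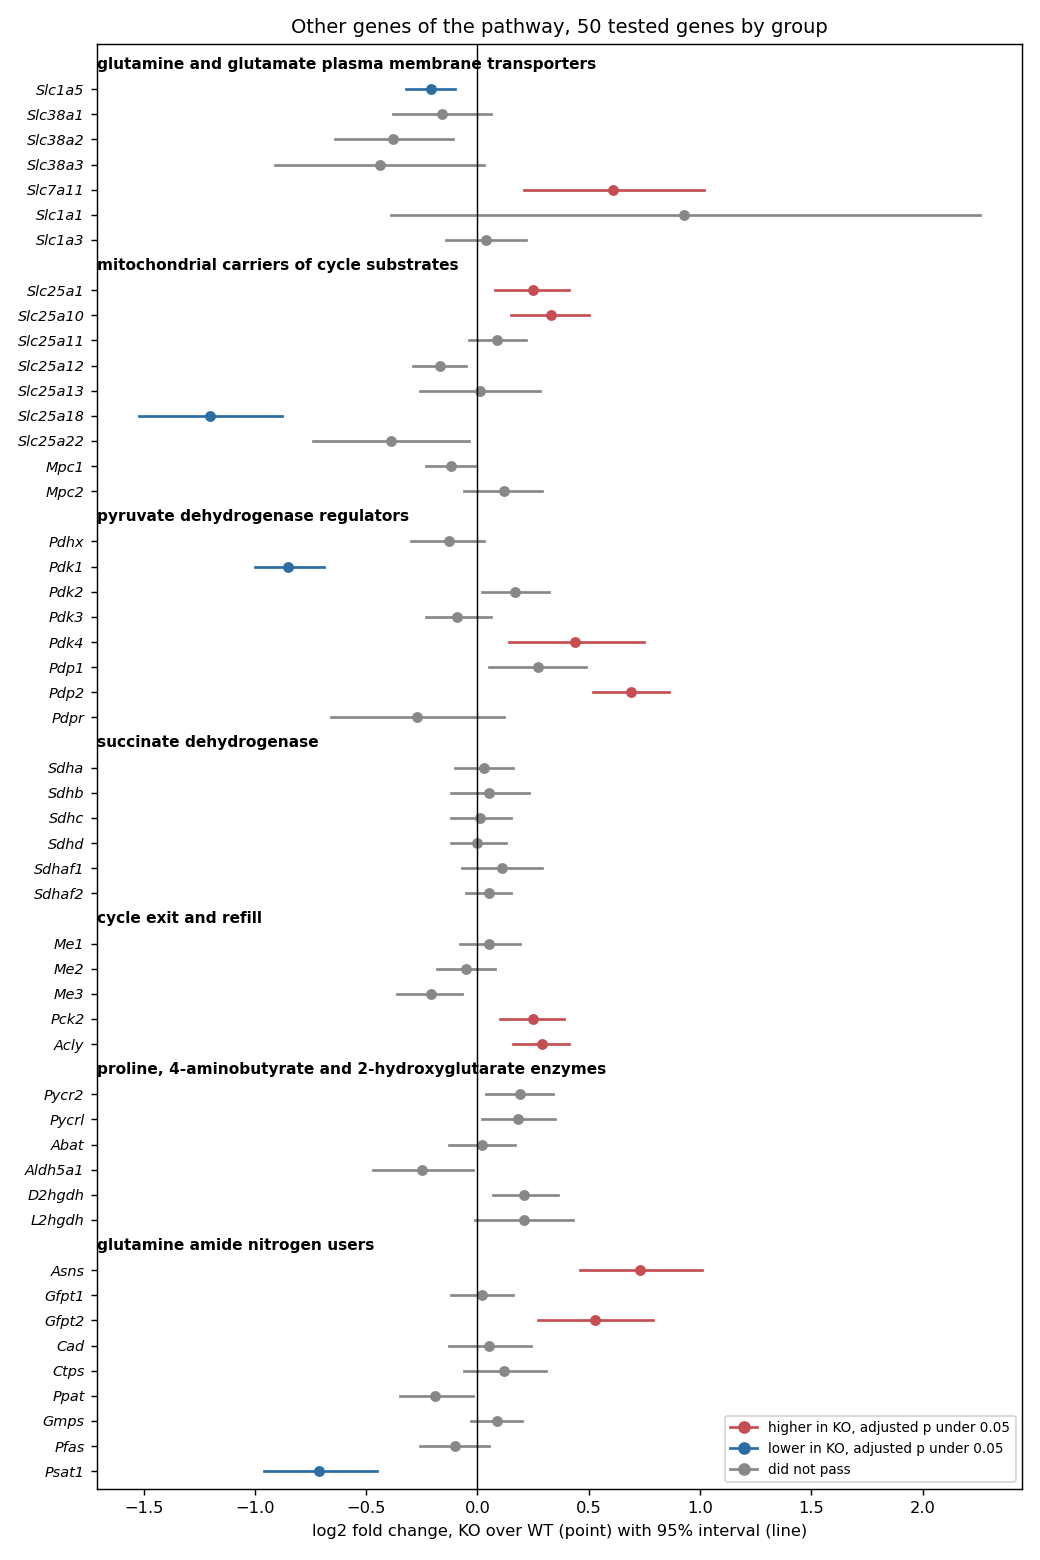
Log2 fold change of KO over WT (x axis) with its 95% interval for the 50 tested other genes of the pathway (y axis, by group), coloured by the call at an adjusted p under 0.05. Pdk1 (-0.85), Slc25a18 (-1.20) and Psat1 (-0.71) lie far to the left, Pdp2 (0.69) and Asns (0.73) to the right, and all 6 succinate dehydrogenase genes lie near 0.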

How the data were processed

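RNA from 10 pools of corneal endothelial peelings was sequenced, 5 KO and 5 WT, with samples grouped by their labelled genotype. Per the labels' protocols, RNA with an integrity number over 7 was used, and 100 ng gave stranded libraries of polyadenylated RNA. The deposited values are raw read counts per gene, made by the authors. Tools listed in the submitters' processing notes are HISAT2 2.1.0, Subread 1.6.4 with featureCounts, cutadapt 2.4 and Trim Galore 0.6.4, and the build is GRCm38.p6. The strand setting, handling of multi-mapping reads and annotation release were not given in the sources used here. All 55450 gene identifiers matched GENCODE vM21.

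The test was that of edgeR 4.0.16 (R 4.3.3): filterByExpr (minimum count 10, minimum total 15), TMM, quasi-likelihood F test of KO against WT, Benjamini-Hochberg adjustment over 17729 genes. Standard errors and 95% intervals were computed from the F statistic and its degrees of freedom. CPM used TMM-scaled library sizes, and levels between genes used union exon lengths. Depth was 36026193 to 51008996 counts per library, the common biological coefficient of variation 16.3%, and errors include counting error. No 2 libraries were repeats of each other: chi-square of their counts over its degrees of freedom was 14.4 to 86.3. Replicate numbers were not used to pair libraries. The members, lists and tests were chosen with earlier results of these data known. All 32 members are named, with library values for those of smallest p, and at most 2 called genes per direction from each other group of the pathway. Alternatives were size factors of DESeq2, total counts, DESeq2 1.42.0, limma-voom (limma 3.58.1), no filter, a replicate block, epithelial and keratocyte marker covariates (mean log2 CPM, prior count 2), a fit without KO 1, KO 2 and KO 5, each library left out, and an adjusted p under 0.01. Promoter sequences are from RefSeq.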

Additional observations from a re-analysis of the deposited data

Results flagged for a closer look

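Of 92 groups of 5 libraries examined for the genes named, 5 had a library far from the other 4, where chance gives about 1 in 20. Glud1 stood at 184 CPM in KO 5, against 164 to 165 CPM in the other KO libraries. Suclg1 stood at 68.3 CPM in KO 5, against 57.4 to 59.6 CPM, and Aco1 at 40.1 CPM in KO 5, against 42.7 to 43.5 CPM. KO 5 also had the highest epithelial marker sum (3911 CPM), and the part of that in these values was not tested. Pdhb stood at 55.3 CPM in KO 3, against 59.8 to 61.1 CPM in the other KO libraries, and Acly at 125 CPM in KO 3, against 113 to 116 CPM.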

How the results depend on the processing

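Idh2 kept its direction and its call in all 19 alternatives, at -0.40 to -0.30, and at -0.40 to -0.32 when 1 library was left out. Aco1 kept its direction and lost its call in 13 of them, and 5 other members were called in at least 1. Of the 32, the number that rose was 0 with size factors of DESeq2, 0 with limma-voom, 0 with no filter, 0 with the epithelial covariate, 0 without KO 1, KO 2 and KO 5, 0 at an adjusted p under 0.01, 2 in DESeq2, 3 with total counts and 3 with the keratocyte covariate. The number that fell was 3 in DESeq2 and 2 with the keratocyte covariate. With 1 library left out, 0 to 4 rose and 1 to 3 fell. Of the other genes of the pathway, 4 rose with the epithelial covariate and 5 without KO 1, KO 2 and KO 5, 7 fell in DESeq2 and 7 with the keratocyte covariate, and 5 to 10 rose and 3 to 7 fell with 1 library left out. Over all genes, 513 rose and 644 fell with the epithelial covariate, 527 rose and 578 fell without KO 1, KO 2 and KO 5, and 836 to 1532 rose and 965 to 1666 fell with 1 library left out. The cause was not tested.

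Replicate numbers gave no pairing: the deviations of same-numbered KO and WT libraries correlated at -0.416 to 0.0851, and 0 of 5 KO libraries correlated best with its own number. With a replicate block, 0 members rose and 1 fell, 5 other genes of the pathway rose and 3 fell, and 750 of all genes rose and 941 fell.

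The sign turned in 14 members, with 0 of these values called and a size of at most 0.07. With total counts, where the median of all genes moved to 0.03, Oat was 0.02, Aldh18a1 0.01, Pycr1 0.004, Pdha1 0.01, Dlat 0.002, Dld 0.02 and Dlst 0.02. Cs was -0.001 with size factors of DESeq2, -0.0007 in DESeq2 and -0.0002 with no filter, and Oat was 0.0004 with the keratocyte covariate. With the epithelial covariate Aldh18a1 was 0.02, Cs -0.01, Idh3b -0.03, Dlst 0.01 and Suclg1 -0.07. Without KO 1, KO 2 and KO 5, Gpt was -0.05, Aldh18a1 0.02, Dlat 0.0007, Cs -0.02, Idh3b -0.03, Dlst 0.03 and Suclg1 -0.04. With 1 library left out, the range was -0.07 to 0.05 for Aldh18a1, -0.11 to 0.07 for Pycr1, -0.03 to 0.01 for Dlst, -0.03 to 0.05 for Cs, -0.05 to 0.05 for Oat, -0.04 to 0.04 for Dld, -0.03 to 0.01 for Pdha1, -0.02 to 0.03 for Idh3b, -0.03 to 0.04 for Suclg1, -0.01 to 0.07 for Got1, -0.004 to 0.09 for Ogdh and -0.001 to 0.15 for Glul.

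With 5 pools a group, Gls2 and Gpt, at about 2 CPM, have the widest intervals of the 32. For Gpt the spread in KO was 40.9% of the mean, with KO 5 at 3.81 CPM and the other KO libraries at 1.48 to 2.3 CPM. Transcript levels do not give enzyme amounts, and the peelings mix cell types.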

Other observations

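Over all tested genes, which were not matched to the 32 in transcript level, the median coefficient of variation was 11.1% in KO and 10.6% in WT. For the 32 it was 5.57% in KO and 7.44% in WT. Their CPM summed to 2874 to 3040 in KO and 2833 to 3218 in WT, so the pathway took an overlapping share of the counts in both.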
